A study of Arabidopsis thaliana with 6 samples.

Results

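Plant U-box proteins are E3 ubiquitin ligases, which choose the proteins that receive ubiquitin. The members described here are PUB20 to PUB26, taken by their 7 loci through the array's probe annotation. A probe set was found for 6 of the 7, each locus with 1 probe set, among 13286 genes measured in all. A gene counts as measured only where the annotation tied a probe set to it alone. Genes not measured here may therefore still have probe sets on the array. PUB20 (AT1G66160), listed as CMPG1 in the gene table, was not analysed here.

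The series used leaves of Arabidopsis thaliana, with 3 mock and 3 salicylic acid (SA) arrays, each of a separate biological replicate according to the labels. Mock plants received the wetting agent Silwet at 0.01%, and SA plants received Silwet at the same strength together with 1 mM SA. All plants were between 3 and 4 weeks old, and leaves were collected 2 hours after the spray. The sources used here do not give the genotype or the accession.

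SA is a phenolic hormone that builds up in leaves under attack by pathogens and switches on defence genes. Pattern-triggered immunity is the earlier layer of defence, in which receptor kinases at the cell surface sense microbial molecules. PUB22, PUB23 and PUB24 are known as partly redundant brakes on that layer, and PUB25 and PUB26 as ligases that mark the immune kinase BIK1 for breakdown. U-box ligases act with E2 enzymes, which carry the activated ubiquitin, and their targets often end in the proteasome.

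Values are log2 signals made with RMA (robust multi-array average), so a difference of 1 is a doubling. SA minus mock differences were fitted with limma over all 13286 genes, and genes with an adjusted p below 0.05 (Benjamini-Hochberg) count as called. Standard errors (SE) are from that fit, and standard deviations (SD) are over the 3 arrays of a group. Different probe sets bind with different strength, so levels are compared between arrays and not between genes. In whole leaves, fewer cells of a type and less RNA per cell cannot be told apart.

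The changes of the 6 measured ligases had both signs. Pairs of members were compared by exact permutation. With 3 arrays per group that test cannot give a p below 0.1, so no pair could pass whatever its values. PUB24 rose 2.83-fold. PUB25, PUB26 and PUB21 were lower in SA than in mock leaves in each of the 3 replicate numbers, PUB25 by the most. PUB22 and PUB23 varied more between replicates than between treatments. Limma called 1 of the 6 members, a rise, where 1.63% of all genes were called and 1.04% were called as rises. The median change of the 6 members was -0.030 log2 units, against -0.0077 over all genes. With the replicate number added to the fit as a block, 2 of the 6 were called, where 9.91% of all genes were. An unadjusted p below 0.05 was reached by 1 member without the block and by 3 with it, against 13.8% and 24.9% of all genes. Groups did not overlap in 2 members, against 18% of all genes, and 4 members had the same sign of difference in all 3 replicate numbers, against 45.1% of all genes.

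**Figure D1:**
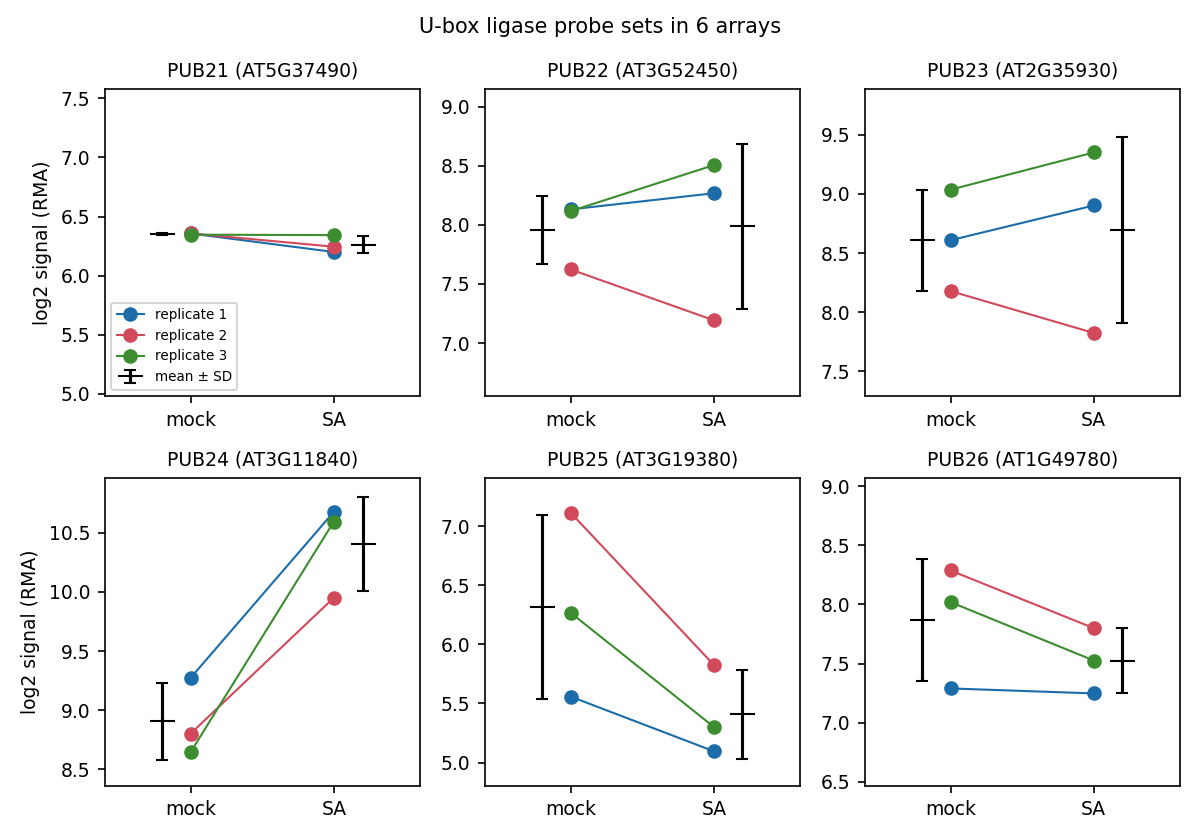
Log2 signal of the 6 measured members in each array, with lines joining arrays of the same replicate number and bars for the group mean ± SD (n = 3); every panel spans the same number of log2 units. PUB24 is higher in all 3 SA arrays. PUB25 is lower in SA along each line, as are PUB26 and PUB21 by smaller steps. In PUB22 and PUB23 replicate 2 lies lowest in both groups.

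PUB24 (AT3G11840, probe set 258787_at), a negative regulator of pattern-triggered immunity, gave log2 signals of 9.27, 8.80 and 8.65 in mock replicates 1, 2 and 3. In SA replicates 1, 2 and 3 it gave 10.68, 9.95 and 10.60. The lowest SA array therefore lay above the highest mock array, and the groups did not overlap. The group means were 8.91 ± 0.33 (SD, n = 3) in mock and 10.41 ± 0.40 (SD, n = 3) in SA leaves, a change of 1.50 ± 0.25 (SE; limma adjusted p = 0.0493), with a 95% interval from 0.90 to 2.11. PUB24 had the 216th smallest p among 217 called genes, so its call sat at the edge of the threshold, while only 0.61% of all genes had a change as high or higher.

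Within the replicate numbers 1, 2 and 3, PUB24 was higher in SA leaves by 1.40, 1.15 and 1.95 log2 units. With the replicate block the SE was 0.16 and the limma adjusted p was 0.00885. Without the block, the call was lost when any 1 of the 6 arrays was left out, with limma adjusted p from 0.0680 to 0.209 and changes from 1.37 to 1.73. It was also lost with 32 linear units added to every signal (limma adjusted p = 0.0755) and when all 22746 probe sets were tested together (limma adjusted p = 0.0517).

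PUB22 (AT3G52450, probe set 252045_at) is a ligase known to act on the exocyst subunit EXO70B2. Its log2 signals were 8.13, 7.62 and 8.12 in mock replicates 1, 2 and 3. In SA replicates 1, 2 and 3 they were 8.27, 7.19 and 8.50. The SA arrays thus reached both above and below the mock arrays. The change was 0.032 ± 0.36 (SE; limma adjusted p = 0.994), with a 95% interval from -0.83 to 0.90. With the replicate block the interval narrowed to -0.39 to 0.46.

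PUB23 (AT2G35930, probe set 263935_at), the close relative of PUB22 that also acts in drought responses, gave 8.61, 8.18 and 9.04 in mock replicates 1, 2 and 3. Its SA values were 8.90, 7.82 and 9.35 in the same order. Replicate 2 was the lowest array of each group, and replicate 3 the highest. The change was 0.085 ± 0.42 (SE; limma adjusted p = 0.985), with a 95% interval from -0.93 to 1.10, or from -0.31 to 0.48 with the replicate block.

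The signals of PUB22 and PUB23 shifted together from array to array. SA replicate 2 lay 0.80 log2 units below the SA mean for PUB22 and 0.87 below it for PUB23, and SA replicate 3 lay 0.52 and 0.66 above it. The within-array difference, PUB22 minus PUB23, had an SD of 0.24 over the mock arrays and 0.12 over the SA arrays, while the SDs of PUB22 and PUB23 themselves were 0.29 and 0.43 in mock and 0.70 and 0.78 in SA leaves. The within-array SD was thus only slightly below that of PUB22 in mock leaves, and well below both in SA leaves. Both genes differed between replicates more than most: 94.5% of all genes had a smaller residual SD than PUB22, and 96.7% a smaller one than PUB23. Their SA minus mock differences had the same signs in each replicate number, positive in numbers 1 and 3 and negative in number 2. Both probe sets are of the kind whose name ends in _at without a suffix for shared probes, but whether transcripts of the 2 close relatives bind each other's probes was not tested.

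**Figure D2:**
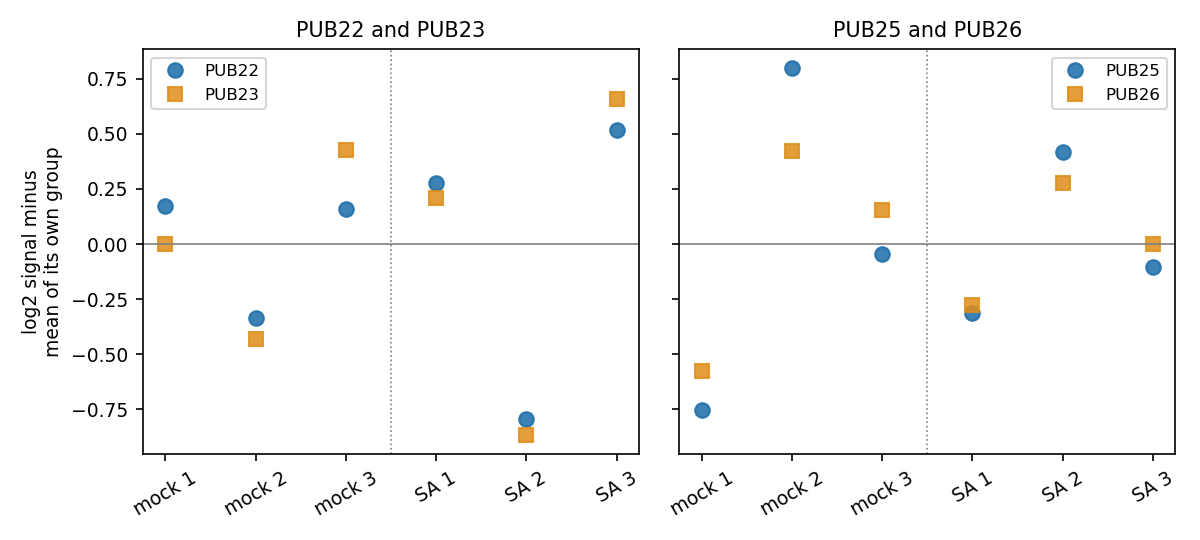
Deviation of each array from the mean of its own group (log2 units), for PUB22 with PUB23 and for PUB25 with PUB26; the dotted line parts the mock from the SA arrays. In the PUB22 and PUB23 panel replicate 2 is lowest in both groups, and in the PUB25 and PUB26 panel replicate 2 is highest and replicate 1 lowest.

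PUB25 (AT3G19380, probe set 258021_at), which together with PUB26 marks BIK1 for breakdown, gave 5.56, 7.11 and 6.27 in mock replicates 1, 2 and 3. In SA replicates 1, 2 and 3 it gave 5.10, 5.83 and 5.30. The groups overlapped, because mock replicate 1 lay below SA replicate 2. The means were 6.31 ± 0.78 (SD, n = 3) and 5.41 ± 0.38 (SD, n = 3), a change of -0.91 ± 0.41 (SE) that did not pass (limma adjusted p = 0.406). Differences in the replicate numbers 1, 2 and 3 were -0.46, -1.29 and -0.97, and with the replicate block the change passed, with an SE of 0.17 (limma adjusted p = 0.0319). A difference as low or lower was seen in 1.27% of all genes.

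Replicate 1 was the lowest array of each group for PUB25. The arrays numbered 1 stood apart in the spiked dap control AFFX-DapX-3_at, a bacterial transcript that no plant makes. Its log2 signals there were 11.52 in mock and 11.42 in SA, against 8.27 to 8.44 in the other 4 arrays. The control belongs to the arrays and not to PUB25 alone, and a link between them was not tested. Without both arrays numbered 1 the change of PUB25 was -1.13, with a limma adjusted p of 0.281 without the block and 0.0430 with it; 0.0301% and 3.04% of all genes were called in those fits. When the block set only replicate 1 apart from replicates 2 and 3, the limma adjusted p of PUB25 was 0.154, in a fit that called 5.15% of all genes. The lowest 25% of gene means fell below 5.31, and SA replicates 1 and 3 of PUB25 were below that level while SA replicate 2 was above it.

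PUB26 (AT1G49780, probe set 261597_at) gave 7.29, 8.29 and 8.02 in mock replicates 1, 2 and 3. It gave 7.25, 7.80 and 7.53 in SA replicates 1, 2 and 3. The groups overlapped, and replicate 1 barely differed between treatments. The change was -0.34 ± 0.28 (SE; limma adjusted p = 0.743, and 0.160 with the replicate block), with differences of -0.042, -0.49 and -0.49 in the replicate numbers. Array by array PUB26 followed PUB25, lowest in replicate 1 and highest in replicate 2 of each group. Here too many genes outside the members had a Pearson's r of at least 0.9, 206 with PUB25 and 216 with PUB26. The PUB26 minus PUB25 difference within an array ran from 1.17 to 1.75 in mock and from 1.97 to 2.23 in SA leaves.

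PUB21 (AT5G37490, probe set 249618_at), which the gene table lists by locus alone, was nearly level. It gave 6.36, 6.36 and 6.35 in mock replicates 1, 2 and 3 and 6.20, 6.24 and 6.34 in SA replicates 1, 2 and 3. Every SA array was below every mock array, but the difference in replicate number 3 was only -0.0037 log2 units. The change was -0.091 ± 0.085 (SE; limma adjusted p = 0.791), with a 95% interval from -0.30 to 0.12. Only 4.13% of all genes had a smaller residual SD.

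**Figure D3:**
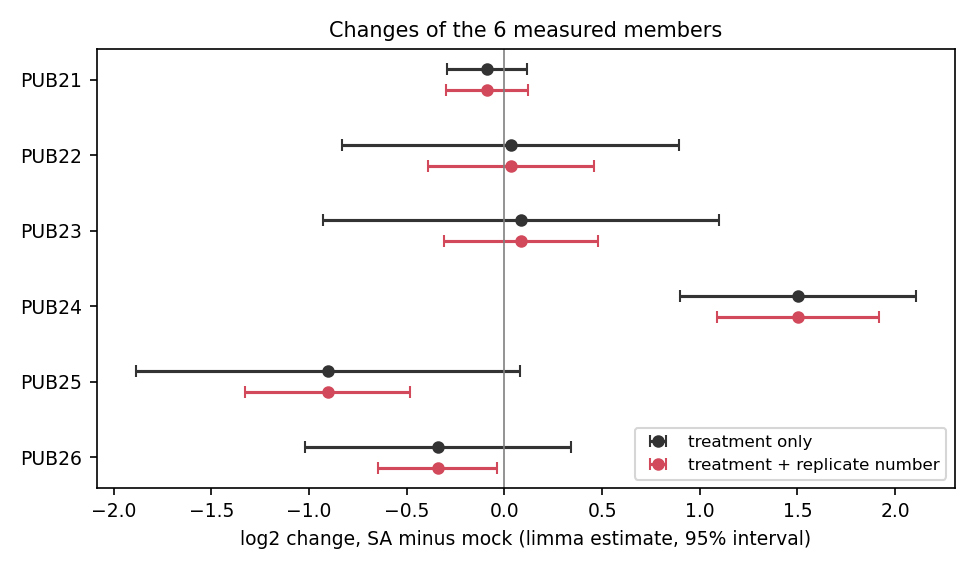
Log2 change from mock to SA of each measured member, as the limma estimate with its 95% interval, from the fit on treatment alone (black) and with a block for the replicate number (red). PUB24 lies above 0 in both fits, while the interval of PUB25 spans 0 in the first fit and lies below it in the second.

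A call in PUB24 and none in its relatives does not by itself show that they differ, so the differences were tested within arrays. The change of PUB24 exceeded that of PUB22 by 1.47 ± 0.29 log2 units (SE, n = 3 against 3) and that of PUB23 by 1.42 ± 0.43. By replicate number the excess over PUB22 was 1.27, 1.58 and 1.56, and the excess over PUB23 was 1.11, 1.50 and 1.63. PUB24 minus PUB22 was 1.14, 1.18 and 0.53 in mock arrays and 2.41, 2.76 and 2.09 in SA arrays, so the groups did not overlap.

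Against the other members the excess of PUB24 was 1.59 over PUB21, 1.84 over PUB26 and 2.41 over PUB25. It was above 0 in all 3 replicate numbers for each of the 5 other members. All 15 pairs of members were compared. Each of the 5 PUB24 comparisons gave the smallest two-sided p an exact permutation test of 3 arrays against 3 allows, 0.1, which is 0.25 after Benjamini-Hochberg adjustment over the 15 pairs, so no pair could pass.

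**Figure D4:**
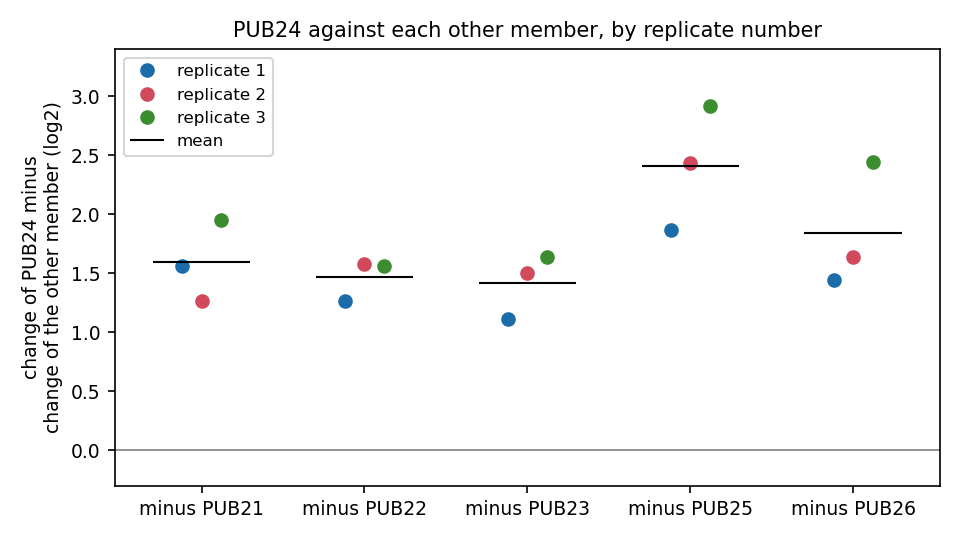
Change of PUB24 minus the change of each other member (log2 units), by replicate number, with the mean as a bar. All 15 points lie above 0, and the mean is highest against PUB25, at 2.41.

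The remaining pairs differed less. PUB22 and PUB23 differed in change by -0.053 ± 0.15 log2 units (SE; exact permutation p = 0.6, adjusted 0.692). PUB25 changed by -0.56 ± 0.20 relative to PUB26, with -0.42, -0.80 and -0.47 in the replicate numbers and groups that did not overlap (exact permutation p = 0.1, adjusted 0.25).

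The other measured U-box genes gave no call. The gene table names 18 further U-box genes, of which 4 were measured. Limma called 0 of the 4 without the block and 0 with it, against 1.63% and 9.91% of all genes. In the fit without the block none of the 4 had an unadjusted p below 0.05, against 13.8% of all genes. PUB19, a ligase of abscisic acid and drought responses, had a change of -0.59 ± 0.36 (SE; limma adjusted p = 0.590), with -1.39 in replicate number 2. PUB43, PUB15 and PUB49 had changes of 0.26, -0.055 and -0.037. The median of the 4 was -0.046 log2 units.

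Known targets and partners of PUB22 to PUB26 were measured in 2 of 12 cases, and neither passed. In the fit without the block 1 of the 2, BIK1, had an unadjusted limma p below 0.05, as did 13.8% of all genes. BIK1 (AT2G39660), the receptor-like cytoplasmic kinase that PUB25 and PUB26 act on, averaged 8.99 in mock and 9.53 in SA leaves on the log2 scale, a change of 0.54 ± 0.19 (SE; limma adjusted p = 0.273, and 0.105 with the block). Its differences were 0.54, 0.16 and 0.93 in the replicate numbers, all above 0, and its groups did not overlap. The same sign in all 3 numbers was seen in 45.1% of all genes, and groups without overlap in 18%. PUB25 and PUB26 act on BIK1 protein, which was not measured, so the transcript level of BIK1 does not show its breakdown. RPN12a (AT1G64520), a proteasome subunit that PUB22 and PUB23 act on, had a change of -0.12 ± 0.15 (SE; limma adjusted p = 0.857). It was also the only measured member of 62 listed proteasome genes. EXO70B2, the exocyst target of PUB22, was not analysed here.

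Among 21 genes of pattern recognition signalling, 2 were measured. Limma called 0 of the 2 without the block and 1 with it, against 1.63% and 9.91% of all genes. EFR (AT5G20480), the receptor for the bacterial elongation factor Tu, had mean log2 signals of 7.62 in mock and 8.72 in SA leaves. Its differences in the replicate numbers, 0.92, 1.14 and 1.22, were all positive, and the groups did not overlap. Over all genes, 45.1% had the same sign in all 3 numbers and 18% had groups without overlap. The change of EFR, 1.10 ± 0.29 (SE), did not pass without the block (limma adjusted p = 0.153) and passed with it (limma adjusted p = 0.00581). WRKY22, a transcription factor of the same signalling chain, had a change of 0.18 ± 0.29 (SE; limma adjusted p = 0.915).

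Exocyst subunits, which tether secretory vesicles to the plasma membrane, were measured in 7 of 33 listed genes. Limma without the block called 0 of the 7, although 1 had an unadjusted p below 0.05, and with the block it called 1; over all genes 13.8% had such a p and 9.91% were called with the block. SEC15B was called with the block, with a change of 0.45 ± 0.19 (SE without the block; limma adjusted p = 0.369, and 0.0423 with the block). SEC10, SEC6 and SEC15A had changes of 0.31, 0.20 and 0.13. The median of the 7 was 0.13 and 6 of the 7 lay above 0, as did 6371 of all 13286 genes.

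E2 enzymes were measured in 13 of 38 listed genes. Limma called 0 of the 13 without the block and 0 with it, against 1.63% and 9.91% of all genes. In the fit without the block 0 of 13 had an unadjusted p below 0.05, against 13.8% of all genes. Changes ran from -0.33 in UBC32 to 0.49 in UBC20 with a median of -0.055. UBC30 and UBC22 had changes of -0.20 and -0.19.

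**Figure D5:**
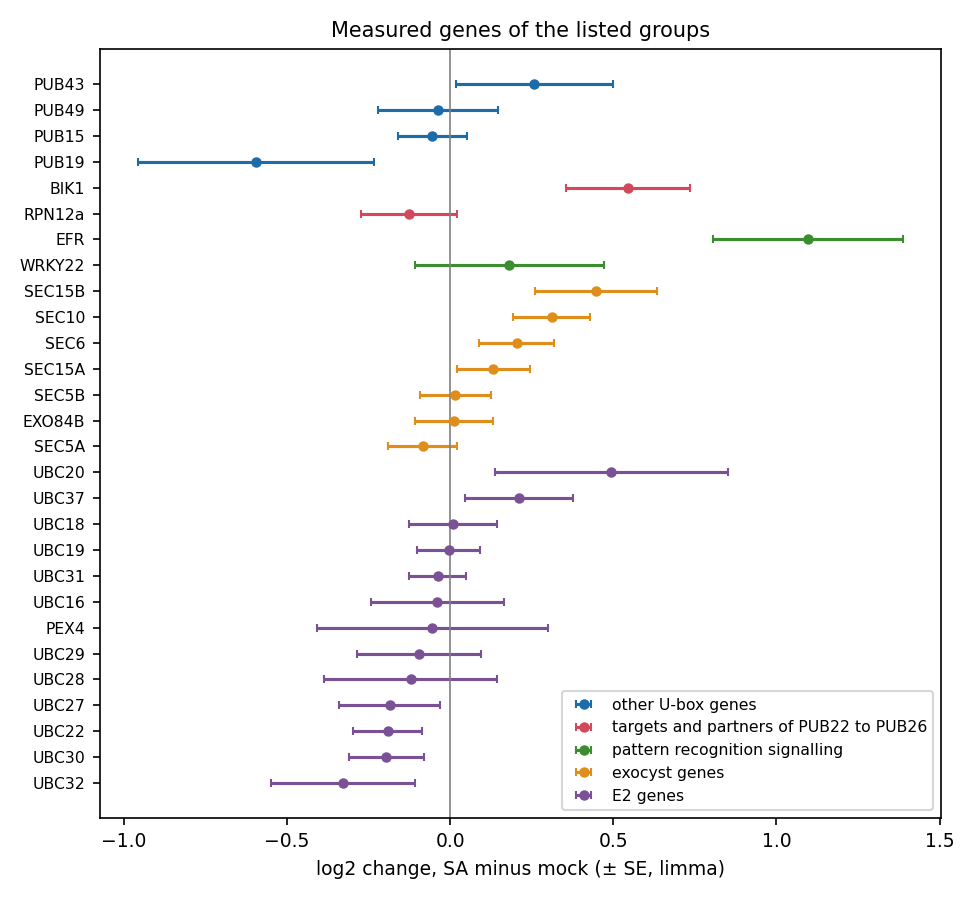
Log2 change from mock to SA (limma estimate ± SE) of the measured genes of 5 lists, coloured by list. EFR has the highest value, 1.10, and most E2 enzymes lie within 0.25 of 0.

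Patterns most like each member were ranked by Pearson's r over the 6 arrays across 13280 other genes, as a description. The 5 genes most like PUB24 were AT3G13950 (r = 0.994), AT4G25940 (r = 0.993), AT1G63350 (r = 0.993), AT3G25610 (r = 0.992) and AT1G31220 (r = 0.992), none with a symbol in the gene table. Their changes were 1.75, 0.72, 0.78, 0.87 and 0.92 log2 units, and limma called AT3G25610 (adjusted p = 0.0467) and AT1G31220 (adjusted p = 0.0445). Those calls were lost without any 1 array, with limma adjusted p from 0.0693 to 0.191. With the replicate block all 5 genes passed, with limma adjusted p from 0.00918 to 0.0261. The r values include the difference between treatments. Rises in these 5 genes thus follow from how they were chosen and are no separate support for the rise of PUB24. With the block but without both arrays numbered 1, none of the 5 passed, with limma adjusted p from 0.0521 in AT1G31220 to 0.118 in AT1G63350. With 6 arrays high values of r are common: 420 genes had an r of at least 0.9 with PUB24.

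AT1G26380 ranked first for PUB22 (r = 0.989) and also for PUB23 (r = 0.988). Its log2 signal was 7.10 in mock replicate 2 and 6.60 in SA replicate 2, the lowest array of each group, and its change was 0.013 ± 0.43 (SE; limma adjusted p = 0.997). The second for PUB22 was AT4G01490 (r = 0.988), and the second for PUB23 was AT1G36430 (r = 0.988). PUB25 was most like AT5G08750 (r = 0.995) and AT3G21040 (r = 0.993), PUB26 like AT5G50020 (r = 0.991) and LIL3:2 (r = 0.990), and PUB21 like AT3G62310 (r = 0.993) and AT3G22050 (r = 0.983). None of these genes was called with or without the block.

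Of the 24 protein-coding genes nearest to the measured members on the chromosome, 2 on each side, 13 were measured, and limma called 1 of them, or 3 with the replicate block, against 1.63% and 9.91% of all genes. These 3 are named after their values were seen. AT5G37480, next to PUB21, rose by 0.86 ± 0.12 log2 units (SE; limma adjusted p = 0.0405), while PUB21 itself had a change of -0.091; without any 1 array the adjusted p of AT5G37480 ran from 0.0618 to 0.172. AT3G52470, near PUB22, and AT2G35910, near PUB23, had changes of 0.72 and 0.76 that did not pass without the block (limma adjusted p = 0.132 and 0.0969) and passed with it (limma adjusted p = 0.0317 and 0.0304). The measured neighbours of PUB24, AT3G11830 and AT3G11850, had changes of 0.081 ± 0.11 and 0.46 ± 0.16 (SE; limma adjusted p = 0.893 and 0.282).

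Of genes with a known SA response, UGT76B1, a glucosyltransferase that acts on SA, rose by 6.43 ± 0.35 log2 units (SE; limma adjusted p = 0.00625). GRX480, a glutaredoxin, rose by 3.43 ± 0.26 (limma adjusted p = 0.0115, and 0.0556 without SA replicate 2). Their p values ranked 2 and 10 among all genes. Both were chosen with earlier results of these data known, so they are no independent check of the treatment. The leaf markers LHCB4.2, PRK and RCA, 3 of the 6 listed, had mean log2 signals of 13.59, 13.03 and 13.99 in mock leaves and changes of -0.23, -0.25 and 0.0044. FMA of guard cells and TRY of trichomes had changes of -0.22 and -0.36, and none of these 5 markers passed in either fit. The listed root, flower and seed markers were not analysed here.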

How the data were processed

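The deposited table holds log2 signals for 22810 probe sets on 6 arrays, produced by the authors using RMA according to the submitters' processing notes; neither its version nor any filter is named there. Its quantile step would hide a change common to most transcripts. Here, 64 AFFX controls were left out. Of the 22746 probe sets left, 13513 were annotated to 1 gene and the others were not used for genes. Of these 13513, 13436 were matched by gene identifier to RefSeq loci of assembly TAIR10.1. The probe set with the highest mean was kept per locus, giving 13286 genes. The fit was limma 3.58.1 in R 4.3.3 (lmFit, eBayes) on treatment, tested on simulated data. Within-array differences between members were tested by exact permutation.

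Members and lists were chosen with earlier results of these data known. Named genes are all measured members, up to 4 of each list with the smallest p, UGT76B1 and GRX480, and the genes most alike in pattern; neighbours were added later. Lists by annotation used symbols and synonyms, since the gene table has no descriptions. Promoters were not searched because no sequences were used here.

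Across probe sets, deviations from the group means were correlated between same-numbered arrays (limit 0.1). The r values were 0.75, 0.46 and 0.55 for numbers 1, 2 and 3. Between arrays of unlike number r ran from -0.59 to 0.14, and mock replicate 3 with SA replicate 2 (0.14) was also above the limit. These values are not independent, since deviations within a group cancel out. The replicate block is given beside the main fit for this reason. That fit has no block, since the series design states no pairing. The labels leave the meaning of a number unstated, and the pairing rests on the values alone. Correlations between arrays ran from 0.959 to 0.986.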

Additional observations from a re-analysis of the deposited data

How the results depend on the processing

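PUB24 kept its direction in every fit run. It was past the threshold with the replicate block, median centring, quantile normalization, the filter on low values, array weights and a spread that follows signal. It did not pass with 32 linear units added (change 1.44, limma adjusted p = 0.0755), over all probe sets (change 1.50, adjusted p = 0.0517), or without any 1 array (1.37 to 1.73), so 0 members were called in those fits. Chosen after seeing the data, the fits without both arrays numbered 1 gave PUB24 1.55 (adjusted p = 0.107, and 0.0522 with the block), with 0 members called without the block and 1 with it. PUB25 (-0.91) passed with the block, which called 2 members, and at -1.13 without both arrays numbered 1 and with the block; without 1 array it ranged from -1.28 to -0.51.

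Changes near 0 turned sign. PUB22 was -0.071 with array weights and -0.021 without both arrays numbered 1, in both fits, where PUB23 was -0.020; without 1 array PUB22 ran from -0.23 to 0.43 and PUB23 from -0.24 to 0.52. The difference PUB21 minus PUB22 ran from -0.51 to 0.096, PUB21 minus PUB23 from -0.60 to 0.11, PUB22 minus PUB23 from -0.19 to 0.033 and PUB22 minus PUB26 from -0.0047 to 0.91. AT1G26380 was -0.089 with array weights and -0.067 without both arrays numbered 1, where AT1G36430 was -0.023, PUB49 0.014 and WRKY22 -0.040; with median centring AT4G01490 was 0.044 and PUB49 0.017. Without 1 array AT1G26380 ran from -0.32 to 0.48, AT1G36430 from -0.041 to 0.14, PUB49 from -0.17 to 0.12, WRKY22 from -0.066 to 0.43, AT4G01490 from -0.087 to 0.12 and PUB15 from -0.13 to 0.0061.

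Genes called numbered 217, against 1316 with the replicate block, 135 with 32 linear units added, 479 with array weights, 334 over all probe sets, 261 without low probe sets, 213 with median centring, 215 with quantile normalization, 143 with a spread that follows signal, 684 with a block for replicate 1 alone, 4 and 404 without both arrays numbered 1, without and with the block, and 5 to 57 without 1 array. Median centring gave 73.7% rises against 63.6%, and the block 52%. In the lists, the block called 1 exocyst gene and 1 pattern recognition gene, the latter also with the block for replicate 1 alone and without both arrays numbered 1 with the block; without 1 array no gene of the U-box, target, pattern recognition, exocyst, proteasome or E2 lists was called. A further 329 comparisons of members, pairs and counts and 522 of other named genes kept their direction and their side of the threshold or, for counts, stayed within 1.5 times the value reported. The cause of these shifts was not tested. An exact test of 3 arrays against 3 cannot go below 0.1.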
